A study of Homo sapiens with 9 samples.

Results

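The genes described here are the matrix metalloproteinases MMP1, MMP2, MMP3 and MMP14 and their tissue inhibitors TIMP1, TIMP2 and TIMP3, measured in the human glioma cell line U251. They were chosen by gene symbol, with all of their probe sets on the array and no use of measured values in the rule. The genes themselves were listed with earlier results of these data known. Counts of members beside shares of all probe sets therefore only describe them. The rule gave 7 genes with 13 probe sets among the 11963 genes and 22215 probe sets tested. A probe set is a group of short array probes read as 1 value. Most are annotated to 1 gene, but 1043 of them carry several gene symbols, none of them a member's. TIMP3 and MMP14 had 4 probe sets each while the other members had 1. The study asked what changes in these cells when WT1, a zinc finger transcription factor, is lowered. The groups, with 3 cultures each, received the transfection reagent Oligofectamine with an siRNA against WT1 at 100 nM, Oligofectamine with a non-targeting (scrambled) siRNA at 100 nM, or Oligofectamine alone (reagent). All cultures were wells of 1 cell line, grown in DMEM and plated in triplicate per condition, and all received the reagent. The wells of each group carried the replicate numbers 1 to 3. The p-values of the main fit therefore measure the spread between wells of 1 line that is left after replicate numbers are taken into account. This spread may be technical. The sources used here do not give the time of harvest.

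Matrix metalloproteinases are zinc enzymes that cut extracellular matrix proteins and are made as inactive precursors. TIMPs bind the active site of these enzymes and block it. TIMP2 has a second role, since it links the precursor of MMP2 to MMP14 on the cell surface, where MMP2 is activated, and in glioma this system is known for its part in invasion through brain tissue.

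Values are log2 levels from RMA, a procedure that corrects the background and normalises between arrays. Each log2 difference comes with its standard error (SE) and 95% interval from limma's linear model. The cultures of each group carried the replicate numbers 1 to 3, and each comparison was made within a replicate number (the blocked fit, which pairs cultures by number). A probe set was called when its p adjusted over all 22215 probe sets was under 0.05. The array medians lay between 6.45 and 6.53. WT1 itself, at its brighter probe set, had log2 levels of 4.76, 5.09 and 4.82 with the WT1 siRNA, 5.59, 5.89 and 5.41 with the scrambled siRNA and 6.05, 6.58 and 5.89 with reagent, with no overlap between groups. It fell by 0.74 against scrambled siRNA (adjusted p = 0.00336) and by 1.29 against reagent (adjusted p = 0.000619), and the scrambled siRNA itself was lower than reagent (−0.55, adjusted p = 0.0164). The other WT1 probe set, 216953_s_at, overlapped between groups, with means of 4.94 with the WT1 siRNA, 5.11 with the scrambled siRNA and 5.08 with reagent. Its differences of −0.18 against scrambled siRNA and −0.15 against reagent did not pass (adjusted p = 0.42 and 0.516). All 8 glial and glioma marker genes were on the array, and 17 of their 21 probe sets lay above the median of all values. Against scrambled siRNA 17 of the 21 glial differences for the WT1 siRNA were above 0 (11493 of 22215 over all probe sets), with a median of 0.22. SOX2 and CD44 had 1 called probe set each, 9.52% of the list beside 3.27% of all probe sets. Of the 21, 9 had an unadjusted p under 0.05 by limma (42.9%, beside 16.4% of all). Against reagent 15 were above 0 (12359 of 22215 over all) and 6 had such a p (28.6%, beside 15.1% of all). Between the scrambled siRNA and reagent 3 were above 0 (12226 of 22215 over all) and 7 had such a p (33.3%, beside 11.9% of all). By limma 0 of the glial probe sets were called in either comparison (1.25% and 1.09% of all). Their part in the results for TIMP3 was not tested. The astrocyte marker S100B was low, at 4.47 to 5.69, and GFAP spanned 5.36 to 9.25 at 1 of its 2 probe sets. Of the neuron markers, 6 of 7 probe sets lay above the median of all values. Leukocyte and microglia markers lay between 3.63 and 6.95 in all arrays, and none of their 12 probe sets was called in any of the 3 group comparisons by limma. Of these, 1, 0 and 1 had an unadjusted p under 0.05 (16.4%, 15.1% and 11.9% of all probe sets). Their summed level on the log2 scale was 9.12 to 9.17 with the WT1 siRNA, 9.05 to 9.22 with the scrambled siRNA and 9.03 to 9.23 with reagent. In a bulk sample, fewer cells that make a transcript and less of it per cell cannot be told apart.

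TIMP3 was the only member called with the WT1 siRNA in the blocked fit over probe sets, and without the block it was not called. TIMP3 binds the extracellular matrix and inhibits both metalloproteinases and the ADAM proteases that shed membrane proteins. It was higher with the WT1 siRNA than in either control group at all 4 probe sets, and 2 of the 4 were called in both comparisons. At probe set 201147_s_at the log2 levels were 7.73, 8.51 and 8.25 with the WT1 siRNA, 7.26, 7.39 and 7.38 with the scrambled siRNA and 7.22, 7.52 and 7.54 with reagent. Every culture with the WT1 siRNA lay above every control culture, and the control groups overlapped. The rise against scrambled siRNA was 1.77-fold, a log2 difference of 0.82 (SE 0.106, interval 0.58 to 1.06, adjusted p = 0.00591), and it was 0.47, 1.12 and 0.87 in replicate numbers 1, 2 and 3. Against reagent the rise was 1.66-fold, 0.73 (SE 0.106, interval 0.50 to 0.97, adjusted p = 0.0162), higher in 3 of 3 numbers.

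The other called TIMP3 probe set, 201149_s_at, had log2 levels of 7.86, 7.64 and 7.65 with the WT1 siRNA, 7.37, 6.73 and 7.05 with the scrambled siRNA and 7.40, 7.06 and 7.05 with reagent. Here too the cultures with the WT1 siRNA lay above all controls. The difference was 0.67 against scrambled siRNA (SE 0.0835, interval 0.48 to 0.86, adjusted p = 0.00537) and 0.55 against reagent (SE 0.0835, interval 0.36 to 0.73, adjusted p = 0.0203), higher in 3 of 3 numbers each time.

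The remaining TIMP3 probe sets had smaller differences that did not pass. The brightest, 201148_s_at, had 8.18, 8.02 and 8.25 with the WT1 siRNA, 7.93, 7.90 and 7.72 with the scrambled siRNA and 7.93, 7.86 and 7.73 with reagent. Here the cultures with the WT1 siRNA again lay above all controls, with differences of 0.30 against scrambled siRNA (interval 0.12 to 0.49, adjusted p = 0.0877) and 0.31 against reagent (interval 0.13 to 0.50, adjusted p = 0.111). The least regular, 201150_s_at, had 7.001, 8.13 and 7.44 with the WT1 siRNA, 7.08, 7.24 and 7.30 with the scrambled siRNA and 6.65, 7.18 and 7.30 with reagent. In replicate number 1 it was lower with the WT1 siRNA than with the scrambled siRNA (−0.07), and most of its mean difference of 0.32 came from number 2 (0.88). That difference did not pass (interval −0.04 to 0.67, adjusted p = 0.37), nor did the one against reagent (0.48, interval 0.12 to 0.84, adjusted p = 0.192).

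When the 4 probe sets were averaged per array, and all genes in the same way, TIMP3 was 1.44-fold higher with the WT1 siRNA than with the scrambled siRNA (0.53, SE 0.081, adjusted p = 0.0126, with 4.19% of genes called) and 1.43-fold higher than with reagent (0.52, SE 0.081, adjusted p = 0.0198, with 1.84% called). Between the scrambled siRNA and reagent TIMP3 differed by −0.12 to 0.16 at its probe sets, with adjusted p-values of 0.643 to 0.983, and every interval included 0. The order of the TIMP3 group means therefore had the WT1 siRNA at the top at each probe set, and the controls below it did not differ beyond their spread. The comparisons with scrambled siRNA and with reagent share the 3 arrays of the WT1 siRNA and are not independent.

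**Figure D1:**
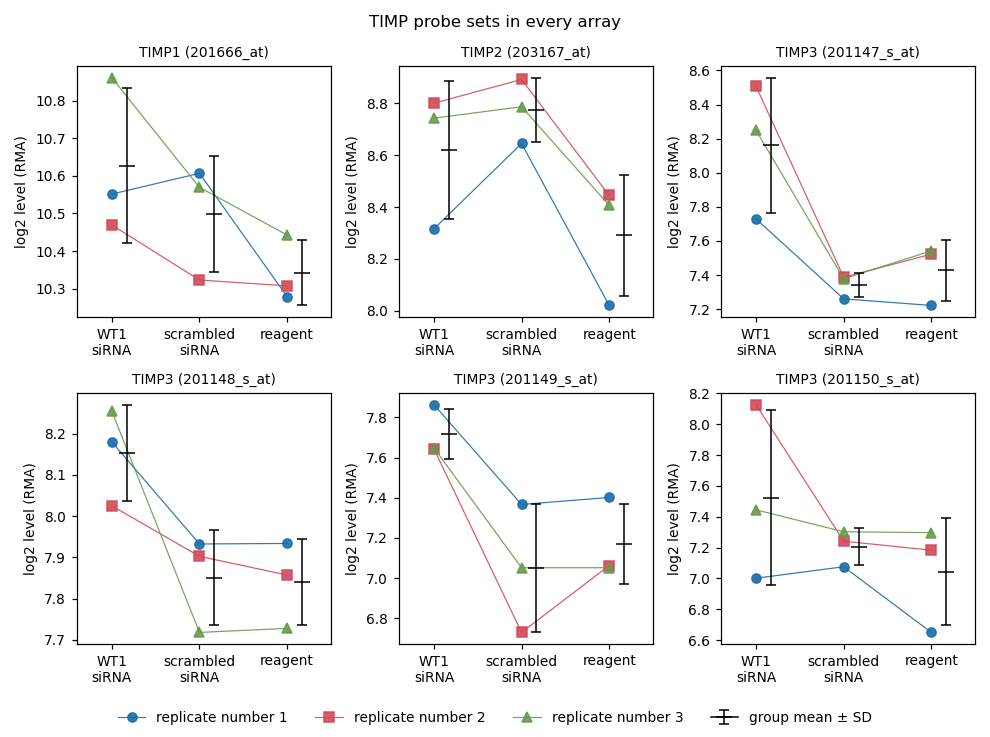
Log2 level (RMA) of the 6 TIMP probe sets in all 9 arrays, by group, with the cultures of 1 replicate number joined by a line and the group mean with its SD in black (n = 3). TIMP3 was higher with the WT1 siRNA at all 4 of its probe sets, without overlap at 3 of them, while TIMP2 was highest with the scrambled siRNA in every replicate number.

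The 2 probe sets of TIMP3 were the only members called against scrambled siRNA, where 1.33% of all probe sets were called higher and 1.94% lower (3.27% in all). They were also the only ones called against reagent, where 0.41% were called higher and 0.837% lower (1.25% in all). Being called higher in both comparisons held for 0.135% of all probe sets. Of the 13 member probe sets, 3 had every culture with the WT1 siRNA above every control culture, all of them TIMP3, against 1.97% of all probe sets with no overlap in either direction. Without a term for the replicate number 0 members were called in any of the 3 comparisons by limma (0.018%, 0% and 0.0045% of all probe sets), with 3, 4 and 2 members at an unadjusted p under 0.05 (3.71%, 2.77% and 2.17% of all probe sets), and the TIMP3 p-values adjusted over all probe sets were 0.486 and 0.612 against scrambled siRNA and 1.00 against reagent. Both TIMP3 calls against scrambled siRNA were lost without the 3 arrays of replicate number 2 (0.67 and 0.55, adjusted p = 0.115 and 0.109), and that of 201147_s_at without scrambled replicate 2 (0.73, adjusted p = 0.0537). Against reagent both were lost without WT1 siRNA replicate 2 (0.60 and 0.48, adjusted p = 0.0627 and 0.106), without reagent replicates 1, 2 or 3 (adjusted p = 0.0526 to 0.131), without replicate number 2 (0.223 and 0.206) or 3 (0.0852 and 0.107), and with only the groups compared in the fit (0.0603 and 0.0602). The difference stayed above 0 in all of these.

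Promoter sequence was read for the 3 members found in the RefSeq promoter table, which are TIMP1, TIMP3 and MMP14 of the 7 members. It is shown because TIMP3 was called higher when a DNA-binding factor was lowered. TIMP1 and MMP14 were not called in the same blocked fit over probe sets. Each line gives the 250 bases before the gene's start in GRCh38.p14, on the plus strand, which are chr22:32801455-32801704 for TIMP3, chrX:47582186-47582435 for TIMP1 and chr14:22836335-22836584 for MMP14. Capitals mark the GC box GGGCGG, a site of the SP family, on either strand (CCGCCC on the reverse) and, in TIMP1, the AP-1-like TGAGTAA for which that promoter is known.
TIMP3: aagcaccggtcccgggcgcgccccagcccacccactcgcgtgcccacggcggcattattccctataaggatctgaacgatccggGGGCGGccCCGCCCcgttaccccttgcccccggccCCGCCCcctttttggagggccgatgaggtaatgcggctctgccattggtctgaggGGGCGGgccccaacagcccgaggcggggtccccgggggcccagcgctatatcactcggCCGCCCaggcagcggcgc
TIMP1: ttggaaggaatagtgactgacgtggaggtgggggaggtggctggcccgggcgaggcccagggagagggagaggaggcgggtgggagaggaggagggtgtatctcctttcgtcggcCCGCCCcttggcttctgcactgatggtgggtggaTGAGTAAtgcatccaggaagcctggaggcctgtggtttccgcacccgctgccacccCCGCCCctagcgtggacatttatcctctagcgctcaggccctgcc
MMP14: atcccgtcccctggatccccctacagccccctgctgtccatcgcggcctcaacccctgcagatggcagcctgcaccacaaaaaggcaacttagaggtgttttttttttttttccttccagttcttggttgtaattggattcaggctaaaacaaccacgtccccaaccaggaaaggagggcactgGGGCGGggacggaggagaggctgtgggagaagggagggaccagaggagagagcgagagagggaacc

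The TIMP3 window held 5 GC boxes, the TIMP1 window 2 and the MMP14 window 1, and 42.6% of all 35116 promoter windows of this length held at least 1. How many windows held as many as that of TIMP3 was not counted. The share of G and C bases was 72.4% for TIMP3, 64.8% for TIMP1 and 56.8% for MMP14, against a median of 58.0% over all windows. The motif GCGTGGGNG, bound by WT1 zinc fingers, was in none of the 3 windows on either strand (2.51% of all windows held it), nor was the EGR-type GCGGGGGCG (4.72%) or the AP-1 motif TGANTCA (6.57%). The AP-1-like TGAGTAA of TIMP1 began 101 bases before the start, and 2.21% of all windows held these letters. No motif searched overlapped another in these windows. These matches describe letters in a window and are not measured binding.

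TIMP2, the inhibitor that also helps MMP14 activate MMP2, was the only member called between the control groups. It had log2 levels of 8.32, 8.80 and 8.74 with the WT1 siRNA, 8.64, 8.89 and 8.79 with the scrambled siRNA and 8.02, 8.44 and 8.41 with reagent. All cultures with the scrambled siRNA lay above all with reagent, and the cultures with the WT1 siRNA overlapped both groups. TIMP2 rose 1.40-fold with the scrambled siRNA against reagent (0.48, SE 0.0692, interval 0.33 to 0.64, adjusted p = 0.0147), by 0.62, 0.45 and 0.38 in numbers 1, 2 and 3. It was 1 of 13 member probe sets called in that comparison, where 0.554% of all probe sets were called higher and 0.536% lower (1.09% in all). With the WT1 siRNA it was 0.33 above reagent in the mean, higher in 3 of 3 numbers, without passing (SE 0.0692, interval 0.17 to 0.48, adjusted p = 0.0586). Averaging the probe sets of each gene left the TIMP2 values as they were and moved that adjusted p to 0.0418, in a comparison where 1.84% of genes were called. In the same fit TIMP2 was called between the controls too (adjusted p = 0.0131), with 1.42% of genes called. Against scrambled siRNA the WT1 siRNA gave −0.15 (interval −0.31 to 0.00051, adjusted p = 0.306). The order was thus scrambled siRNA, WT1 siRNA, reagent in 3 of 3 replicate numbers, and only its ends differed beyond the threshold in the blocked fit over probe sets. The call between scrambled siRNA and reagent was lost without replicate 1 or 2 of either group (adjusted p = 0.072 to 0.121, differences 0.41 to 0.51), without replicate number 1 (0.41, adjusted p = 0.0743) and without number 2 (0.50, adjusted p = 0.305).

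TIMP1, a broad inhibitor of secreted metalloproteinases that is often abundant in glioma cells, had a rank between the percentiles 93.1 and 95.7 of its array. Its levels were 10.55, 10.47 and 10.86 with the WT1 siRNA, 10.61, 10.32 and 10.57 with the scrambled siRNA and 10.28, 10.31 and 10.44 with reagent. All cultures with the WT1 siRNA were above all with reagent, by 0.28 in the mean (SE 0.0793, interval 0.11 to 0.46), but the difference did not pass (adjusted p = 0.126). Against scrambled siRNA it was 0.13 (interval −0.05 to 0.31, adjusted p = 0.489), and the sign differed in number 1 (−0.06). In limma's blocked fit 3, 6 and 1 of the 6 TIMP probe sets had an unadjusted p under 0.05. These counts are against scrambled siRNA, against reagent and between the controls, where 16.4%, 15.1% and 11.9% of all probe sets did. Over all 6 TIMP probe sets the median difference was 0.31 against scrambled siRNA and 0.40 against reagent for the WT1 siRNA, beside 0.0040 and 0.014 over all probe sets. Those medians are led by TIMP3, which supplies 4 of the 6 probe sets.

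**Figure D2:**
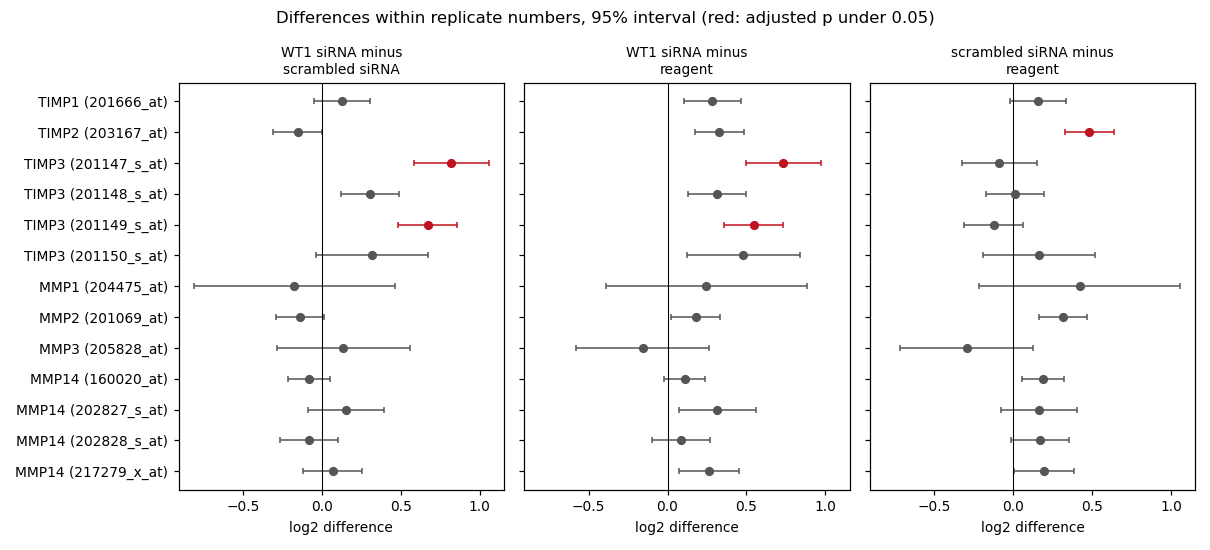
Log2 difference of each of the 13 member probe sets in the 3 comparisons, from the fit within replicate numbers, with its 95% interval and red for an adjusted p under 0.05. The red points are 2 TIMP3 probe sets in both comparisons of the WT1 siRNA and TIMP2 between scrambled siRNA and reagent, and the intervals of MMP1 and MMP3 are the widest.

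Over all 13 member probe sets 3, 9 and 4 had an unadjusted p under 0.05 against scrambled siRNA, against reagent and between the controls (16.4%, 15.1% and 11.9% of all probe sets). The arrays of the groups did not overlap at 3, 4 and 2 of them (6.67%, 5.5% and 5.26%), and the sign was the same in all replicate numbers at 6, 9 and 9 (35.1%, 33.4% and 37%). None of the 7 MMP probe sets, 4 of which are MMP14, was called in any group comparison (3.27%, 1.25% and 1.09% of all probe sets were). In limma's blocked fit 0, 3 and 3 of the 7 had an unadjusted p under 0.05 against scrambled siRNA, against reagent and between the controls. MMP2, a gelatinase that degrades type IV collagen, had log2 levels of 10.39, 10.24 and 10.09 with the WT1 siRNA, 10.60, 10.28 and 10.25 with the scrambled siRNA and 10.12, 10.11 and 9.96 with reagent. Its order was the same as that of TIMP2 in 3 of 3 replicate numbers, with the scrambled siRNA highest and reagent lowest. The scrambled siRNA lay above reagent without overlap, by 0.32 (SE 0.0681, interval 0.16 to 0.47), which did not pass (adjusted p = 0.0671). The WT1 siRNA differed by −0.14 from scrambled siRNA (interval −0.29 to 0.015, adjusted p = 0.362) and by 0.18 from reagent (interval 0.025 to 0.33, adjusted p = 0.259).

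MMP14, the membrane-anchored enzyme that activates the MMP2 precursor, was not called between groups at any probe set. At its brightest probe set, 160020_at, it had 7.80, 7.25 and 7.13 with the WT1 siRNA, 7.87, 7.30 and 7.26 with the scrambled siRNA and 7.64, 7.20 and 7.02 with reagent. The groups overlapped widely, because number 1 was high in each of them, but the order within numbers was again scrambled siRNA, WT1 siRNA, reagent in 3 of 3. This order held in all numbers for 3 of the 13 member probe sets, those of TIMP2, MMP2 and this one of MMP14, and for 0.954% of all probe sets. No other order was counted, and this one is the order seen in these same members, so the count only describes them. The other 3 MMP14 probe sets did not keep that order, and at 202827_s_at and 217279_x_at the WT1 siRNA had the highest mean. Against scrambled siRNA the MMP14 differences ran from −0.08 to 0.15 (adjusted p = 0.564 to 0.779), so the probe sets disagreed in sign. Against reagent the WT1 siRNA gave 0.09 to 0.32 (adjusted p = 0.176 to 0.676), and the scrambled siRNA gave 0.16 to 0.20 (adjusted p = 0.207 to 0.632). Averaged over its 4 probe sets, MMP14 was 0.19 above reagent with the WT1 siRNA (interval 0.044 to 0.34, adjusted p = 0.193 by limma). With the scrambled siRNA that mean was 0.18 above reagent (interval 0.030 to 0.33, adjusted p = 0.271). Both intervals excluded 0, and neither difference passed.

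MMP1, the interstitial collagenase, varied most over the arrays, by 3.21 on the log2 scale. It had log2 levels of 5.57, 8.78 and 6.90 with the WT1 siRNA, 6.88, 8.14 and 6.75 with the scrambled siRNA and 5.72, 8.05 and 6.74 with reagent. Number 2 was highest in every group. The effect of the WT1 siRNA against scrambled siRNA was −1.32 in number 1, 0.64 in number 2 and 0.15 in number 3, a mean of −0.18 with an interval of −0.81 to 0.46 (SE 0.284, adjusted p = 0.839). Its lowest value, in number 1 with the WT1 siRNA, was brighter than 34.4% of the probe sets on that array, and its highest than 80.2%.

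MMP3, stromelysin, which cuts proteoglycans and can activate other metalloproteinase precursors, ranged over 2.22. Its log2 levels were 8.83, 11.05 and 9.20 with the WT1 siRNA, 9.31, 10.29 and 9.07 with the scrambled siRNA and 9.55, 10.84 and 9.17 with reagent. As with MMP1, the difference between the WT1 and scrambled siRNAs was below 0 in number 1 (−0.48) and above 0 in numbers 2 (0.76) and 3 (0.13), with a mean of 0.14 (interval −0.28 to 0.56, SE 0.187, adjusted p = 0.805). With 1 culture per group and number, whether the effect of the siRNA differs between numbers could not be tested. Against reagent the WT1 siRNA gave 0.25 for MMP1 (interval −0.39 to 0.88, adjusted p = 0.742) and −0.16 for MMP3 (interval −0.58 to 0.26, adjusted p = 0.749). Between the scrambled siRNA and reagent the values were 0.42 for MMP1 (interval −0.21 to 1.06, adjusted p = 0.636) and −0.29 for MMP3 (interval −0.71 to 0.13, adjusted p = 0.61).

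**Figure D3:**
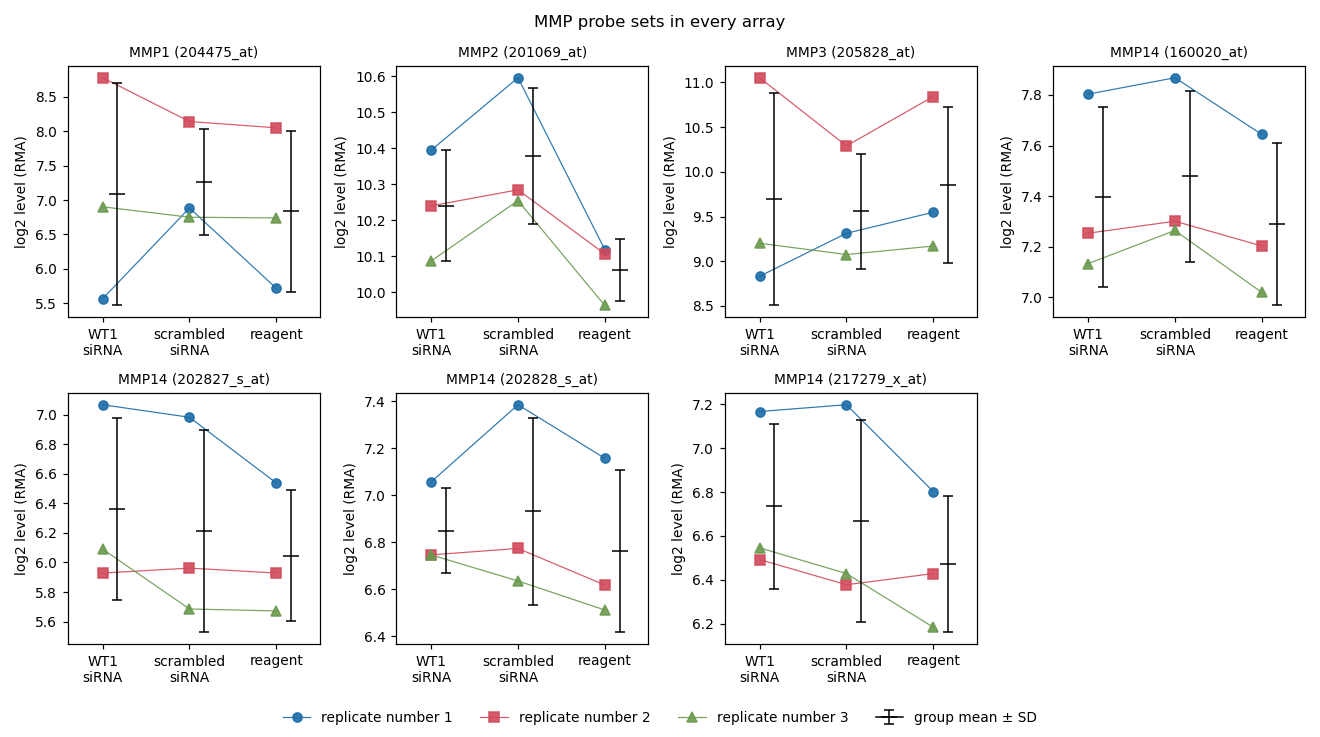
Log2 level (RMA) of the 7 MMP probe sets in all 9 arrays, by group, with cultures of 1 replicate number joined and the group mean with its SD in black (n = 3). MMP1 and MMP3 were highest in replicate number 2 in every group, and all 4 MMP14 probe sets were highest in number 1.

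The replicate number accounted for more of the spread of the MMPs than the treatment did, with MMP2 as the exception. For MMP1 85.4% of the sum of squares over the 9 arrays lay between numbers and 2.88% between groups, and for MMP3 these shares were 89.0% and 2.44%. The 4 MMP14 probe sets had 83.0% to 91.8% between numbers. TIMP3 differed from these at 3 of its probe sets, with 70.8% to 75.8% between groups, while 201150_s_at had 46.6% between numbers and 28.3% between groups. TIMP2, MMP2 and TIMP1 had 56.6%, 52.9% and 45.1% between groups. Over all probe sets the median shares were 59.1% for numbers and 13.4% for groups.

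The mean of MMP1 was 6.06 (SD 0.722), 8.32 (SD 0.396) and 6.80 (SD 0.0902) in numbers 1, 2 and 3 (n = 3 each), a 4.81-fold span. That of MMP3 was 9.23 (SD 0.365), 10.73 (SD 0.394) and 9.15 (SD 0.0659), a 2.99-fold span. MMP14 was highest in number 1 at 160020_at, with 7.77 (SD 0.115) in number 1, 7.25 (SD 0.0488) in number 2 and 7.14 (SD 0.122) in number 3. In limma's F test between numbers 11 of the 13 member probe sets were called, where 49.7% of all probe sets were called, and the exceptions were TIMP1 (adjusted p = 0.0555) and TIMP3 at 201148_s_at (adjusted p = 0.452). The smallest adjusted p-values were those of MMP14 at 160020_at (7.66e-05) and 202827_s_at (0.00012) and of MMP3 (0.000212). Without replicate number 1 the count was 3, and 23.3% of all probe sets were called. The signal at the 3' end of control transcripts minus that at their 5' end moved with the number as well, a measure that depends on both the RNA and its labelling. For ACTB it was 0.05 to 0.09 in number 1, 0.55 to 0.68 in number 2 and 0.26 to 0.505 in number 3. For GAPDH it was −0.025 to −0.0056 in number 1, 0.16 to 0.18 in number 2 and 0.095 to 0.11 in number 3. The part of this measure in the differences between numbers was not tested. Across the groups the ACTB value spanned 0.08 to 0.55 with the WT1 siRNA, 0.05 to 0.68 with the scrambled siRNA and 0.09 to 0.62 with reagent.

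**Figure D4:**
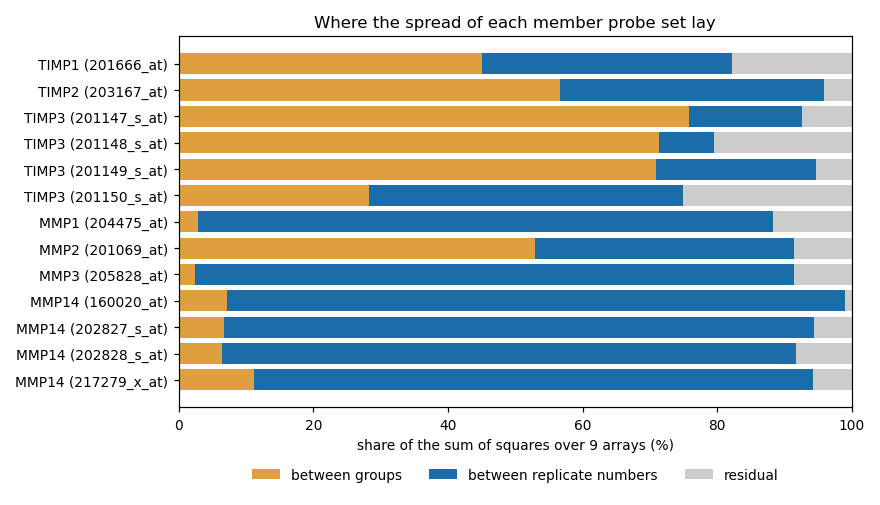
Share of the sum of squares over the 9 arrays, in percent, that lay between groups, between replicate numbers and in the residual, for each member probe set. TIMP3 is led by the groups at 3 of 4 probe sets, and MMP1, MMP3 and MMP14 by the replicate number.

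Related genes on the array were counted in 4 lists, which were not tested against each other. Of 26 probe sets of 18 genes, the other MMPs and TIMP4, 0 were called in any group comparison by limma in either fit. In the blocked fit 3.27%, 1.25% and 1.09% of all were called against scrambled siRNA, against reagent and between the controls. There 3, 2 and 5 of the 26 had an unadjusted p under 0.05 (16.4%, 15.1% and 11.9% of all). TIMP4, a TIMP first described in heart, was 7.08 with the WT1 siRNA, 7.40 with the scrambled siRNA and 7.01 with reagent in the mean, with differences of −0.32 (adjusted p = 0.0758) between the siRNAs and 0.39 (adjusted p = 0.0675) between the controls. MMP9, the other gelatinase, had means of 5.84, 5.93 and 5.86 in these groups. Of the 17 genes for activators, partners and other inhibitors, with 42 probe sets, 1 gene rose and 1 fell with the WT1 siRNA against scrambled siRNA. Their called probe sets were 7.14% of the list, beside 3.27% of all probe sets, and 18 of the 42 had an unadjusted p under 0.05 (42.9%, beside 16.4% of all). PLAU, the urokinase that starts plasmin formation, was lower than with the scrambled siRNA by 0.53 (SE 0.0659, adjusted p = 0.00519) and 0.49 (adjusted p = 0.0198) at its probe sets. In the same order its means were 9.98 and 10.68 with the WT1 siRNA and 10.52 and 11.17 with the scrambled siRNA. With reagent they were 9.84 and 10.59, so the WT1 siRNA lay between the controls, slightly above reagent. CD44, a hyaluronan receptor that can hold metalloproteinases at the cell surface, rose by 0.28 at 1 of its 8 probe sets (adjusted p = 0.0437).

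Against reagent 0 of these 42 probe sets were called by limma (11 at an unadjusted p under 0.05, or 26.2%, beside 15.1% of all). Between the scrambled siRNA and reagent 4 were called (9.52%, beside 1.09% of all), and 14 had an unadjusted p under 0.05 (33.3%, beside 11.9%). All 4 were higher, for PLAU (0.68 and 0.57, adjusted p = 0.00325 and 0.0169), PLAUR, the receptor of urokinase (0.61, adjusted p = 0.036, at 1 of 3 probe sets), and THBS2, a matricellular protein that binds MMP2 (0.58, adjusted p = 0.0153). FURIN, which cleaves the MMP14 precursor, was 0.35 higher there and did not pass (adjusted p = 0.0503).

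Among 19 genes of ADAM and ADAMTS proteases, with 38 probe sets, ADAMTS1, which cleaves proteoglycans, rose by 0.44 (adjusted p = 0.0345) and ADAM12 fell by 0.39 at 1 of 4 probe sets (adjusted p = 0.0128) with the WT1 siRNA against scrambled siRNA. That was 5.26% of the list, beside 3.27% of all probe sets, and 7 of the 38 had an unadjusted p under 0.05 (18.4%, beside 16.4% of all). None was called in the other comparisons by limma, where 1.25% and 1.09% of all were called. There 2 against reagent (5.26%, beside 15.1% of all) and 4 between the controls (10.5%, beside 11.9% of all) had an unadjusted p under 0.05. Of 15 AP-1 and ETS transcription factors, families that drive several MMP promoters, JUN (0.39, adjusted p = 0.0381, at 1 of 4 probe sets) and ELK1 (0.26, adjusted p = 0.0451, at 1 of 3) rose against scrambled siRNA. The calls were 6.25% of the 32 probe sets, beside 3.27% of all, and 3 of the 32 had an unadjusted p under 0.05 (9.38%, beside 16.4% of all). ETV4 (0.38, adjusted p = 0.0233) and FOSL2 (0.34, adjusted p = 0.0401, at 1 of 3 probe sets) rose against reagent, again 6.25% of the list beside 1.25% of all probe sets. In that comparison 16 of the 32 had an unadjusted p under 0.05 (50%, beside 15.1% of all), and 30 of the 32 differences were above 0. By limma 0 of the 32 probe sets were called between the controls (8 at an unadjusted p under 0.05, or 25%, beside 11.9% of all). The medians against reagent were 0.21 for the AP-1 and ETS list, 0.084 for the activators and partners, 0.015 for the ADAM and ADAMTS list and 0.029 for the other MMPs, beside 0.014 over all probe sets and 0.28 over the members.

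The genes whose pattern was closest to each member were found by Pearson r over the 9 arrays after the mean of each replicate number was taken off, at the member's brightest probe set. These were the highest values among the 19064 probe sets with 1 gene symbol, less those of the member itself. The coefficients are therefore high by selection, and the arrays share the normalisation and the groups. An r also takes no account of the size of a difference. For TIMP3 the closest genes, at 201148_s_at, which was not called, were AZU1 (0.99), PPP1R11 (0.98) and MAN1A2 (0.98). With the WT1 siRNA they stood 0.13, 0.089 and 0.17 above the scrambled siRNA. For TIMP1 the closest genes were OTUB1 (0.99), CD163 (0.99) and DNAJB5 (0.98). For TIMP2 they were MCTP1 (0.99), FABP4 (0.98) and IDS (0.98), of which FABP4 stood 0.69 above reagent and 0.42 below the scrambled siRNA with the WT1 siRNA. MMP2 was closest to PANX1 (0.99), VPS8 (0.98) and LGALS3BP (0.98), and MMP14 to ACSF2, COX7A2 and S100A10 (0.98 each). MMP1 was closest to MLXIP, PFKFB2 and PDGFA (0.99 each), and MMP3 to MECOM (0.96), DCTD (0.96) and CALD1 (0.95). None of these lists named another member.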

How the data were processed

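Transcript levels were measured on 9 Affymetrix arrays from biotin-labelled RNA. The authors deposited log2 levels made with RMA, per the submitters' processing notes. The sources used here give no version or chip definition. The table held 22277 probe sets and 0 missing values, and 62 control probe sets were left out. Gene symbols came from the platform annotation; looking members up by gene ID changed 0 symbols. The probes' genome build is not given, so only promoter windows carry coordinates. Groups and replicate numbers came from the sample titles, and the series text calls the arrays biological triplicates.

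Linear models were fitted with limma 3.58.1 in R 4.3.3 (lmFit, contrasts.fit, eBayes) to all 9 arrays, with 1 mean per group and the replicate number as a fixed block, which the choice of paired comparisons asked for. Tests were two-sided, with Benjamini-Hochberg adjustment over all 22215 probe sets. The pairing was checked on deviations from group means: the 9 pairs with the same number correlated at 0.647 to 0.849, and the 18 pairs with other numbers at −0.611 to −0.031. Arrays of a number thus deviate together, and without the block p-values include that spread. Because deviations within a group sum to 0, the negative values of pairs with other numbers are no separate check. Precision is limited by the number of arrays. The procedure was also run on simulated data, with independent normal noise around the replicate effects of this same blocked fit. That run cannot tell whether the block is right for these arrays.

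All member probe sets were named, along with WT1 and the probe sets called in 4 lists of related genes (up to 6 per list and comparison), and the 3 genes most like each member in pattern. TIMP4, MMP9 and FURIN were named after their values were seen. The members, lists and blocked fit were chosen with earlier results of these data known. Alternatives were the fit without the block or with a random one, the compared groups alone, a filter at a mean log2 of 5, median centring, trend or robust eBayes, gene means, and leaving out arrays or numbers. Figures were drawn with matplotlib 3.10.9.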

Additional observations from a re-analysis of the deposited data

How the results depend on the processing

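Over 39 differences of single member probe sets, 689 of 741 values under the alternatives kept their sign and their side of the threshold, 28 kept the sign and lost the call, 5 gained one and 19 changed sign. Without the replicate block (the unpaired fit) the member counts were 0, 0 and 0, against 2, 2 and 1 with it for the WT1 siRNA against scrambled siRNA, against reagent, and scrambled siRNA against reagent, while 4, 0 and 1 probe sets of all were called, against 726, 277 and 242. With the 2 groups compared alone the count against reagent was 0 (3 of all probe sets), and with an eBayes trend it was 4, TIMP1 and TIMP2 joining TIMP3, while the scrambled siRNA gained MMP2 for a count of 2; the trend also took the calls over all probe sets to 552 and 470. Leaving out an array or a replicate number gave 0 to 2, 0 to 3 and 0 to 1 called members in the comparisons and 3 to 12 between numbers, against 11, while over all probe sets 2 to 706, 0 to 465, 3 to 387 and 5174 to 11197 were called. All sign changes concerned differences that were not called. For the WT1 siRNA against scrambled siRNA, leaving out arrays or numbers moved MMP1 over −0.58 to 0.39, MMP3 over −0.18 to 0.44, and MMP14 over −0.18 to 0.042 (202828_s_at) and −0.0067 to 0.14 (217279_x_at). Against reagent it moved MMP1 over −0.078 to 0.63 and MMP3 over −0.41 to 0.14. Between scrambled siRNA and reagent it moved MMP1 over −0.049 to 0.71 and TIMP3 over −0.21 to 2.1e-05 (201147_s_at), −0.042 to 0.075 (201148_s_at) and −0.00034 to 0.33 (201150_s_at), and median centring gave −0.0018 at 201148_s_at. Gene means gave −0.0088 for TIMP3 between the controls and 0.014 for MMP14 between the siRNAs, each of opposite sign to its brightest probe set. The cause of these changes was not tested.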
